A study of Mus musculus with 16 samples.

Results

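The genes described here encode 7 acute phase proteins (Saa1, Saa2, Saa3, Orm1, Orm2, Lcn2 and Hp) and 3 parts of the interleukin-6 (IL-6) signal that drives them in hepatocytes (Il6ra, Socs3 and Stat3). They were chosen by name, and all 10 were found among the 22322 genes of each deposited table. The study measured poly(A)-selected RNA of diet-induced obese (DIO) mice that had been injected intraperitoneally with vehicle or with halofuginone at 100 μg/kg every 2 days, with tissue taken after 8 weeks. Halofuginone inhibits prolyl-tRNA synthetase. Each arm was sequenced in 5 livers and in 3 samples of white adipose tissue. Vehicle libraries carry the label HFD and halofuginone libraries the label H100, and obesity is common to every group, so no lean control enters any comparison. The labels used here give no strain, sex, age or fat depot, and they do not say whether a liver and a fat library of the same number came from 1 mouse. Nothing in them says whether libraries of a group came from separate mice either, so the p-values measure the spread between these libraries.

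In the acute phase response, macrophages and other cells release IL-1, tumour necrosis factor and IL-6, and the liver answers by secreting large amounts of a fixed set of plasma proteins. IL-6 binds its receptor, encoded by Il6ra, and the shared signalling chain gp130, which activates JAK kinases and the transcription factor STAT3. STAT3 then works with C/EBP and NF-kB factors at acute phase promoters and also induces Socs3, whose product shuts the receptor complex off again. Saa1 and Saa2 encode the circulating serum amyloid A proteins of the mouse, and Saa3 a form made largely outside hepatocytes. In obese adipose tissue Saa3, Lcn2 and Hp are also made locally.

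Each liver library held between 20309956 and 31980683 counts, and each fat library between 17070614 and 21387799. Levels are given as CPM, the counts rescaled so that libraries can be compared after edgeR's TMM adjustment of their sizes. Hepatocyte markers summed to between 133625 and 146513 CPM in vehicle livers and between 50468 and 124988 CPM in treated livers, a sum that is mostly Alb, and 3 of these 10 markers were called lower. Adipocyte markers summed to between 13943 and 30559 CPM in the 6 fat libraries. The treated livers did not form 1 tight group for the acute phase genes. Counts of the 10 genes together made up 4.93% of halofuginone liver 2 and 1.75% of halofuginone liver 3, against 0.365% to 0.761% of the other 3 treated livers and 0.356% to 0.619% of the 5 vehicle livers. Because the RNA is from whole tissue, fewer cells of a type and less RNA per cell cannot be told apart.

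Promoter sequences, from RefSeq at build GRCm38.p6, are shown for Saa1 and Saa2, whose levels moved together, for Orm2 and Lcn2, which passed the test in liver, and for Socs3, the direct feedback gene of STAT3. The table held 8 of the 10 genes, without Orm1 and Hp. Each sequence is the 250 bases before the transcription start, 5′ to 3′ on the gene's strand. Capitals mark matches on either strand to TTCNNNGAA (a STAT motif), GGG and CC with any 5 bases between (NF-kB) or TTGCNNAA (C/EBP), which were also searched in the next 50 bases.
Saa1, chr7:46742981-46743230, minus strand: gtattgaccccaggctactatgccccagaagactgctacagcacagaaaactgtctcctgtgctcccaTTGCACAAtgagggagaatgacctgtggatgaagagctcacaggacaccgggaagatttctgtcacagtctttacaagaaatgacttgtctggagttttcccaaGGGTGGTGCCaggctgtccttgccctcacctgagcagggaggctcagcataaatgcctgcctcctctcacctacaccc
Saa2, chr7:46751583-46751832, plus strand: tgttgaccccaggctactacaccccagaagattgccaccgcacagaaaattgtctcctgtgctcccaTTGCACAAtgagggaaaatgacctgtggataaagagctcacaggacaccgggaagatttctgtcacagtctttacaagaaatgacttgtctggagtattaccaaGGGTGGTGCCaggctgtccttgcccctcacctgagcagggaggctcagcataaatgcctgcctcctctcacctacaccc
Orm2, chr4:63362199-63362448, plus strand: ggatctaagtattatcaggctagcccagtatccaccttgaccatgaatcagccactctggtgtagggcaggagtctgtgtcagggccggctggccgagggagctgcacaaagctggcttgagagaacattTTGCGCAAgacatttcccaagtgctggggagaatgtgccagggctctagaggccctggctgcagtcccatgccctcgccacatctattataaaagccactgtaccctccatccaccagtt
Lcn2, chr2:32387740-32387989, minus strand: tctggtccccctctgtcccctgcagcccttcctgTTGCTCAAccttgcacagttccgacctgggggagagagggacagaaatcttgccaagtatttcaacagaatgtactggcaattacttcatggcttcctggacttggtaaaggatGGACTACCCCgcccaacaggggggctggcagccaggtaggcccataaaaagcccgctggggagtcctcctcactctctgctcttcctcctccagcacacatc
Socs3, chr11:117969367-117969616, minus strand: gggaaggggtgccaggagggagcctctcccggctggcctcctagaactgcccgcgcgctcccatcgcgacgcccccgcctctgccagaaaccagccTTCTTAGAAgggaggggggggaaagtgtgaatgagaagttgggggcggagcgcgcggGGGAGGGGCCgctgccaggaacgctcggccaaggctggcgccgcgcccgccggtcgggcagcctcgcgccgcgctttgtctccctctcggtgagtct

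With the 50 bases after the start included, the promoters of Saa1 and Saa2 were 96.0% identical over their aligned bases, and those of Saa1 and Saa3 65.1%. In Saa1 the C/EBP match began 182 bases and the NF-kB match 78 bases before the start, and in Saa2 these distances were 183 and 79 bases. The Orm2 promoter held 1 C/EBP match, which reads the same on both strands, and Lcn2 held 1 NF-kB and 1 C/EBP match. That of Il6ra, which also passed the test in liver and is not shown, held 2 overlapping NF-kB matches and 0 C/EBP matches. Among the 8 promoters a STAT match was found in Socs3 alone (TTCTTAGAA, 154 bases before the start). Of all 32851 promoters in the table, 8.3% held the STAT motif, 10.8% the C/EBP motif and 50.8% the NF-kB motif. A match describes letters in this window and is no evidence that a factor binds there.

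The first comparison asked how the 10 genes differed between halofuginone and vehicle livers. With edgeR's quasi-likelihood test, adjusted by Benjamini-Hochberg over all 12311 genes tested, Orm1, Orm2 and Lcn2 were higher and Il6ra was lower under halofuginone. Over all genes tested, 23.2% were called, 12.7% higher and 10.5% lower. An unadjusted p under 0.05 was found for 9 of the 10 genes, all but Socs3, against 39.1% of all genes. The median log2 fold change of the 10 was 2.15, beside 0.02 over all genes. Scaling by library size alone in place of TMM moved the median of all genes to 0.17 and that of the 10 to 2.35, raised the share of calls that were higher from 54.7% to 76.9% and changed the direction of none of the 10, so fold changes are relative to TMM. With that scaling 6 of the 10 were called, Saa3 and Hp among them, beside 29.5% of all genes. In 0 of the 10 did the treated livers lie wholly outside the range of the vehicle livers, as 11.7% of all genes did (5.13% higher and 6.55% lower).

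**Figure D1:**
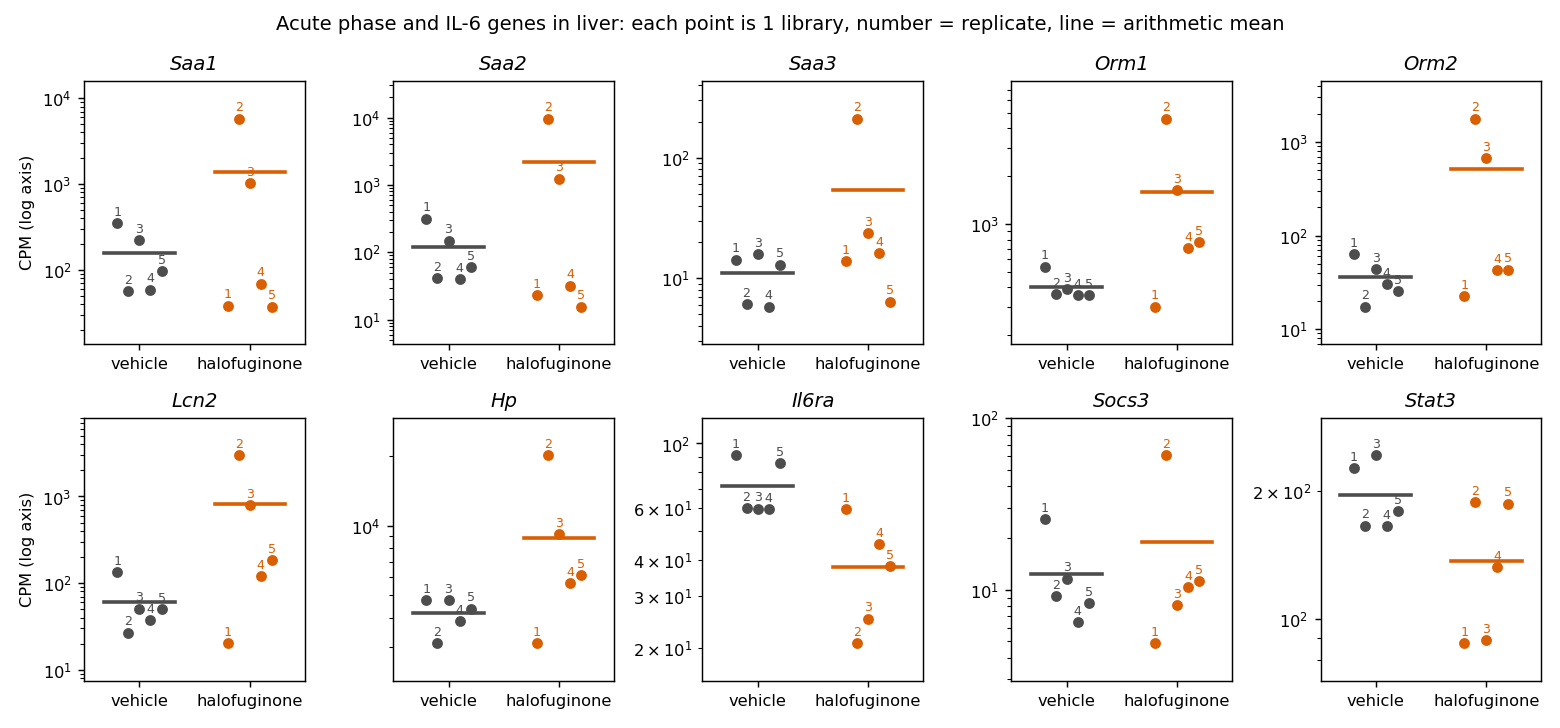
Level of each of the 10 genes in the 10 liver libraries, in CPM on a log axis, with vehicle in grey and halofuginone in orange. Each point is 1 library with its replicate number, and the line is the arithmetic mean of the 5. In 8 of the 10 panels the highest point is halofuginone replicate 2, while replicate 1 lies among or below the vehicle points in all 10.

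Saa1 (ENSMUSG00000074115) was at 353, 57.2, 224, 58.9 and 97.0 CPM in vehicle livers 1 to 5 and at 38.3, 5794, 1037, 69.2 and 37.3 CPM in halofuginone livers 1 to 5. Treated livers 2 and 3 stood above every vehicle liver, treated livers 1 and 5 below every one, and treated liver 4 among them. Following the group means, the log2 fold change was 3.14 (SE 1.33) with an edgeR adjusted p of 0.105. The ratio of means was 8.83, but the ratio of medians was 0.713.

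Saa2 (ENSMUSG00000057465) was more widely spaced, with 318, 41.4, 150, 39.7 and 59.6 CPM in vehicle and 23.0, 9656, 1246, 31.9 and 15.6 CPM under halofuginone. Treated liver 2 was 30.4 times the highest vehicle liver, and treated livers 1, 4 and 5 were all below the lowest. The 5 treated livers thus spanned a factor of 618, and the vehicle livers a factor of 8.01. On the log2 scale the fold change was 4.17 (SE 1.65, edgeR adjusted p 0.0853), with a ratio of means of 18.0 and a ratio of medians of 0.536. Leaving out treated livers 2 and 3 together, a choice made after seeing the data, turned both genes round, to −1.72 (SE 0.63, edgeR adjusted p 0.130) for Saa1 and −2.38 (SE 0.74, edgeR adjusted p 0.0910) for Saa2. Without treated liver 1 both passed the test (edgeR adjusted p 0.0439 and 0.0359), as they did with DESeq2 (adjusted p 0.0477 and 0.0145). On simulated liver counts 18.1% of DESeq2 calls were false, beside 3.95% of edgeR calls.

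Saa3 (ENSMUSG00000040026) was below Saa1 and Saa2 in all 10 livers, also in FPKM (per length), at 14.3, 6.11, 15.8, 5.79 and 12.9 CPM in vehicle livers and 13.8, 212, 23.8, 16.1 and 6.37 CPM in treated livers. Only treated liver 2 was far from the rest, at 13.4 times the vehicle maximum. Treated livers 3 and 4 were above that maximum by less, with liver 3 at 1.51 times it, and 1 and 5 were within the vehicle range. Its log2 fold change was 2.31 (SE 0.86, edgeR adjusted p 0.0718). It dropped to 0.44 (SE 0.39, edgeR adjusted p 0.452) without treated liver 2, and Saa3 passed the test without treated liver 1 (2.52, SE 0.85, edgeR adjusted p 0.0344). Saa3 also passed with library size alone as the scaling (2.50, SE 0.85, edgeR adjusted p 0.0442).

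Orm1 and Orm2 encode orosomucoids (alpha-1-acid glycoproteins), which bind drugs and lipids in plasma. Orm1 (ENSMUSG00000039196) was at 542, 365, 389, 357 and 360 CPM in vehicle livers and at 303, 4596, 1635, 705 and 771 CPM in treated livers. In contrast to the serum amyloid genes, 4 of the 5 treated livers were above every vehicle liver, and treated liver 1 was below every one. Orm1 rose by a log2 value of 1.99 (SE 0.60, edgeR adjusted p 0.0347). Orm2 (ENSMUSG00000061540) was at 63.6, 17.4, 43.5, 30.2 and 25.4 CPM in vehicle and 22.7, 1779, 669, 42.7 and 43.4 CPM under halofuginone. Its rise came from treated livers 2 and 3, at 28.0 and 10.5 times the vehicle maximum, while the other 3 lay within the vehicle range. Orm2 rose by a log2 value of 3.83 (SE 1.13, edgeR adjusted p 0.0333). Without treated livers 2 and 3 it was 0.00 (SE 0.39) for Orm2 and 0.55 (SE 0.27, edgeR adjusted p 0.233) for Orm1.

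Lcn2 (ENSMUSG00000026822) encodes lipocalin-2, which withholds iron from bacteria by binding their siderophores and is made by hepatocytes, adipocytes and neutrophils. It was at 134, 26.7, 50.8, 37.1 and 50.4 CPM in vehicle livers and at 20.2, 2987, 799, 121 and 183 CPM in treated livers. Treated livers 2, 3 and 5 were above the vehicle maximum, treated liver 4 was above all vehicle livers but the first, and treated liver 1 was the lowest of the 10. Lcn2 rose by a log2 value of 3.78 (SE 1.10, edgeR adjusted p 0.0319), and was at 0.84 (SE 0.64, edgeR adjusted p 0.434) without treated livers 2 and 3.

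Hp (ENSMUSG00000031722) encodes haptoglobin, which captures free haemoglobin, and was the most abundant of the 10. It was at 4759.6, 3122, 4784, 3880.03 and 4386 CPM in vehicle livers and at 3106, 20163, 9221, 5668 and 6102 CPM in treated livers. As for Orm1, treated livers 2 to 5 lay above every vehicle liver and treated liver 1 below. The log2 fold change of 1.08 (SE 0.42) did not pass the test (edgeR adjusted p 0.0810). It did without treated liver 1 (1.27, SE 0.35, edgeR adjusted p 0.0138) and with DESeq2 (1.06, SE 0.39, adjusted p 0.0263). It also did with library size alone as the scaling (1.27, SE 0.43, edgeR adjusted p 0.0429), and it was 0.51 (SE 0.27, edgeR adjusted p 0.207) without treated liver 2.

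The receptor gene Il6ra (ENSMUSG00000027947) went the other way. It was at 91.1, 60.2, 59.8, 59.6 and 85.6 CPM in vehicle livers and at 59.7, 20.7, 25.1, 45.1 and 38.1 CPM in treated livers. Treated livers 2 to 5 were below every vehicle liver, and the 2 with most serum amyloid RNA, 2 and 3, had the least Il6ra. Treated liver 1 was level with the lowest vehicle livers. Il6ra was called, with −0.92 (SE 0.27, edgeR adjusted p 0.0312) as its log2 fold change, and kept most of that size without treated liver 2 (−0.77, SE 0.24, edgeR adjusted p 0.0514) and without livers 2 and 3 (−0.59, SE 0.21, edgeR adjusted p 0.118), though the call was lost in both.

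Socs3 (ENSMUSG00000053113), the feedback inhibitor of the receptor complex, was at 25.9, 9.17, 11.6, 6.50 and 8.36 CPM in vehicle livers and at 4.87, 60.8, 8.12, 10.4 and 11.3 CPM in treated livers. Treated liver 2 was at 2.35 times the vehicle maximum, and treated livers 3 to 5 were within the vehicle range, so treated liver 3 had high serum amyloid RNA without high Socs3 RNA. For Socs3 the log2 fold change was 0.64 (SE 0.64, edgeR adjusted p 0.492), and −0.52 (SE 0.40, edgeR adjusted p 0.376) without treated liver 2. Stat3 (ENSMUSG00000004040) was at 226, 166, 243, 165 and 180 CPM in vehicle and at 87.4, 188, 89.0, 132 and 187 CPM under halofuginone. Treated livers 1, 3 and 4 lay below every vehicle liver, with livers 2 and 5 inside their range. Its log2 fold change of −0.52 (SE 0.24) did not pass the test (edgeR adjusted p 0.126). Stat3 RNA does not report the phosphorylated, active form of the protein, which was not measured here.

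None of the 4 calls was kept in all 10 fits that left out 1 library. Calls became fewer in general, since leaving out any library but halofuginone liver 1 lowered the share of all genes called from 23.2% to between 10.3% and 15.4%. Without 1 vehicle liver the log2 fold change of Orm1 stayed between 1.93 and 2.12. The same shares apply to the lost liver calls of other genes given below. The calls of Orm1 and Orm2 were each lost in 7 of 10 such fits, namely without each of the 5 vehicle livers and without halofuginone liver 2 or 3 (edgeR adjusted p 0.0555 to 0.0795 for Orm1 and 0.0546 to 0.0891 for Orm2). That of Lcn2 was lost in 6, without vehicle liver 2, 3, 4 or 5 or halofuginone liver 2 or 3 (edgeR adjusted p 0.0622 to 0.0868). That of Il6ra was lost in 6, without vehicle liver 1, 2 or 5 or halofuginone liver 2, 3 or 5 (edgeR adjusted p 0.0514 to 0.0782). Leaving out halofuginone liver 1 instead raised the number called from 4 to 8, all but Socs3 and Stat3, with 42.8% of all genes called in that fit. Leaving out halofuginone livers 2 and 3 together gave 0 called, beside 4.01% of all genes, and a median of −0.24 for the 10 genes.

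**Figure D2:**
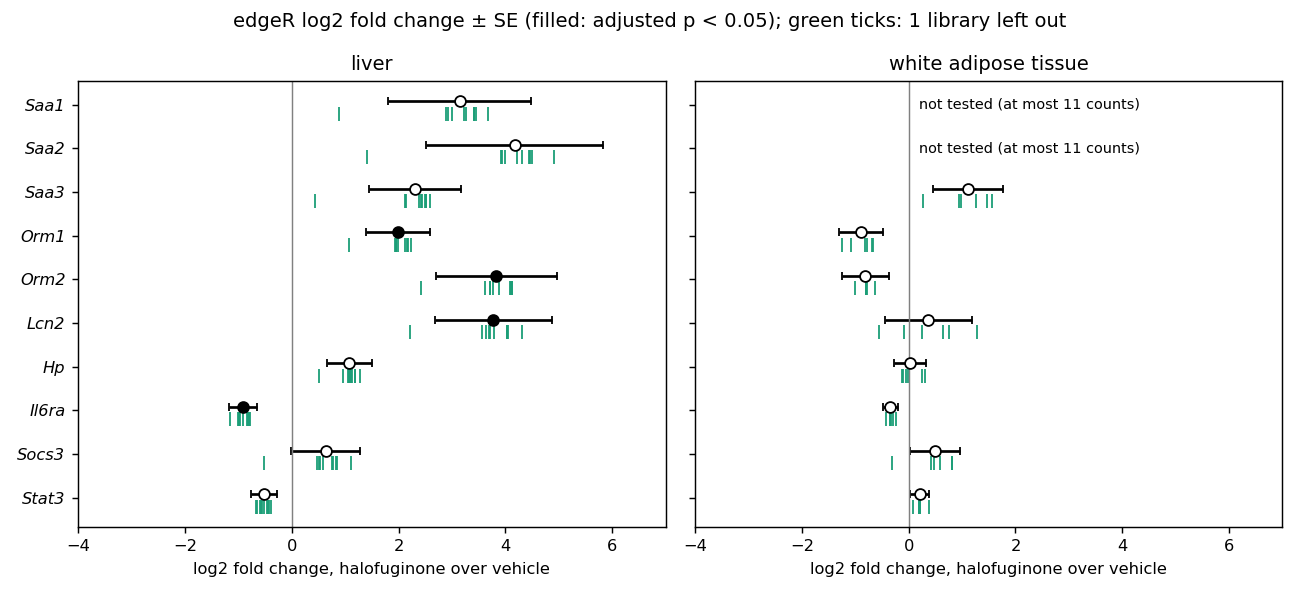
Log2 fold change of halofuginone over vehicle by edgeR with its SE, for liver (left) and white adipose tissue (right); filled circles passed the test and green ticks are fits that leave out 1 library. In liver the tick farthest toward 0 for the 7 acute phase genes is the fit without halofuginone replicate 2, and for Socs3 that tick is at −0.52.

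The spread between treated livers was itself unusual. The standard deviation of log2 CPM over the 5 treated livers was 4.11 for Saa2, 3.27 for Saa1, 2.78 for Orm2 and 2.73 for Lcn2, beside a median of 0.253 over all genes tested. For Il6ra it was 0.612 and for Stat3 0.541, wider than in 92.0% and 89.1% of genes. The serum amyloid genes were also among the most variable in vehicle livers, with 1.30 for Saa2 and 1.17 for Saa1 beside a median of 0.174, wider than in 99.9% and 99.8% of genes. Vehicle liver 1 was the highest of its group for Saa1, Saa2, Orm1, Orm2, Lcn2, Il6ra and Socs3. Saa2 and Saa1 were thus the most variable of the 10 in both groups.

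Counted by library, halofuginone liver 2 had 8 of the 10 genes above every vehicle liver and 1 below (all genes, 35.2% and 31.7%), and liver 3 had 7 above and 2 below (33.2% and 31.7%). Livers 4 and 5 each had 3 above and 3 below (31.5% and 29.8%, and 33.2% and 31.0%). Liver 1 had 0 above and 7 below, where all genes gave 23.0% and 24.5%. Halofuginone liver 2 was the highest of all 10 livers for 8 of the 10 genes, and for 15.2% of all genes. Neutrophil markers were also highest there, with a summed level of 20.9 CPM against 4.47 to 7.60 CPM in the other treated livers and 6.31 to 12.1 CPM in vehicle. S100a9 had 192 counts and S100a8 83 counts in that liver, Ly6g had 0, and 0 of the 4 neutrophil markers tested among the 10 listed were called. Macrophage markers summed to 393 CPM in that liver, within the 386 to 545 CPM of vehicle livers. Halofuginone liver 1 stood apart in both macrophage markers (746 CPM, with 393 to 443 CPM in the other treated livers) and lymphocyte markers (11.2 CPM, with at most 4.04 CPM in the other 9 livers). The part of these cells in the levels above was not tested.

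Compared per length, as the deposited FPKM, vehicle livers had the order Hp (2950.3 ± 494), Orm1 (492 ± 96.2), Saa1 (245 ± 199), Saa2 (181 ± 177), Lcn2 (62.1 ± 44.4), Orm2 (44.1 ± 22.0), Stat3 (42.3 ± 7.27), Saa3 (18.6 ± 7.78), Il6ra (12.4 ± 2.57) and Socs3 (4.56 ± 2.90, SD, n = 5 each). Hp was above Orm1 in each of the 5 vehicle livers, and Il6ra above Socs3. The ranges of Orm1, Saa1 and Saa2 overlapped, as did those of Lcn2, Orm2 and Stat3, and of Saa3 and Il6ra. The range of Lcn2 also overlapped those of Saa1 and Saa2, and the range of Orm2 those of Saa2 and Saa3. The mean FPKM of Saa2 (3789 ± 7178) exceeded that of Saa1 (2516 ± 4446) and of Orm1 (2250.4 ± 2468) in treated livers, with an SD larger than the mean in each of the 3.

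The paralogs did not keep a fixed ratio. The FPKM of Saa2 was 0.591 to 0.864 of that of Saa1 in vehicle livers, and in halofuginone livers 1 to 5 it was 0.576, 1.60, 1.15, 0.442 and 0.402. Saa2 thus exceeded Saa1 in the 2 treated livers with most serum amyloid RNA and in none of the other 8 livers. Orm2 was 0.0477 to 0.117 of Orm1 in vehicle, and 0.0749, 0.387, 0.409, 0.0605 and 0.0563 in halofuginone livers 1 to 5, again highest in livers 2 and 3. The transcripts are close copies, with 94.4% identity between Saa1 and Saa2 and 91.0% between Orm1 and Orm2 in GENCODE M21, and 9.11% and 20.4% of the 50-base windows of Saa1 and Orm1 occur unchanged in the partner. Reads from shared stretches may have been split between partners in the authors' counting, so these ratios are uncertain.

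**Figure D3:**
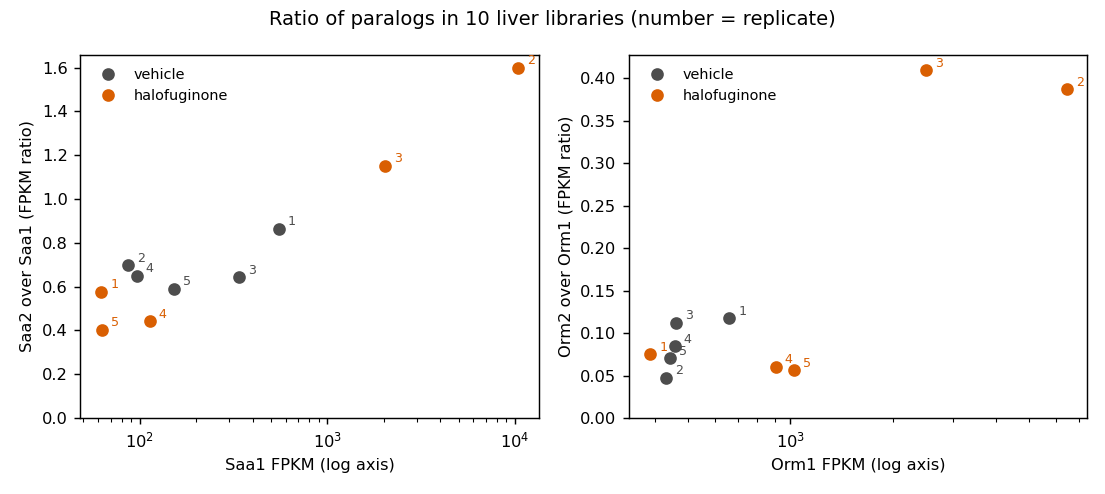
Ratio of deposited FPKM of Saa2 to Saa1 against the FPKM of Saa1 (left) and of Orm2 to Orm1 against the FPKM of Orm1 (right, both horizontal axes logarithmic) in 10 livers, numbered by replicate. Saa2 exceeds Saa1 in halofuginone livers 2 (1.60) and 3 (1.15), which are also the highest for Saa1, and the same 2 livers have the highest Orm2 to Orm1 ratios.

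Of 32 other acute phase proteins of liver listed, all tested, 7 rose and 2 fell (28.1% called, beside 23.2% of all genes), with a median log2 fold change of 0.36. Apcs, the serum amyloid P component and the chief pentraxin of the mouse, was at 96.8 to 140 CPM in vehicle, 101 CPM in halofuginone liver 1 and 1449 to 3017 CPM in livers 2 to 5. Here livers 4 and 5 were as clearly above vehicle as 2 and 3, unlike for Saa1 and Saa2. The log2 fold change was 3.86 (SE 0.63, edgeR adjusted p 0.00504), and Apcs kept its call without each library in turn (edgeR adjusted p at most 0.0179).

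Fgl1, a hepatocyte-secreted fibrinogen-like protein, rose by 1.56 on the log2 scale (SE 0.42, edgeR adjusted p 0.0244). Hpx, the haem-binding hemopexin, rose by 1.47 (SE 0.40, edgeR adjusted p 0.0247). Hamp (hepcidin, the iron hormone), Itih3, Lbp and C3 completed the 7 that rose, with log2 fold changes of 1.46, 1.12, 1.10 and 1.02 and edgeR adjusted p-values of 0.0354, 0.0212, 0.0405 and 0.0361. Saa4, the constitutive serum amyloid gene that barely takes part in the acute phase, was lower in all 5 treated livers than in any vehicle liver, at 248 ± 138 against 851 ± 336 CPM (SD, n = 5 each). Its log2 fold change was −1.78 (SE 0.37, edgeR adjusted p 0.0108). Hamp2, a close copy of the hepcidin gene Hamp (94.6% transcript identity, so uncertain), fell by 1.98 (SE 0.62, edgeR adjusted p 0.0404). Crp, Fga and Serpina3n, also among the 32, did not pass (edgeR adjusted p 0.626, 0.261 and 0.256). These 3 and the previous 4 were named after their values were seen. Halofuginone liver 2 was the highest of the 10 livers for 24 of the 32. The calls of Fgl1, Hpx and Hamp2 were lost in 7, 4 and 7 of 10 fits without 1 library, each among them without halofuginone liver 3 (edgeR adjusted p over these fits 0.0509 to 0.103).

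**Figure D4:**
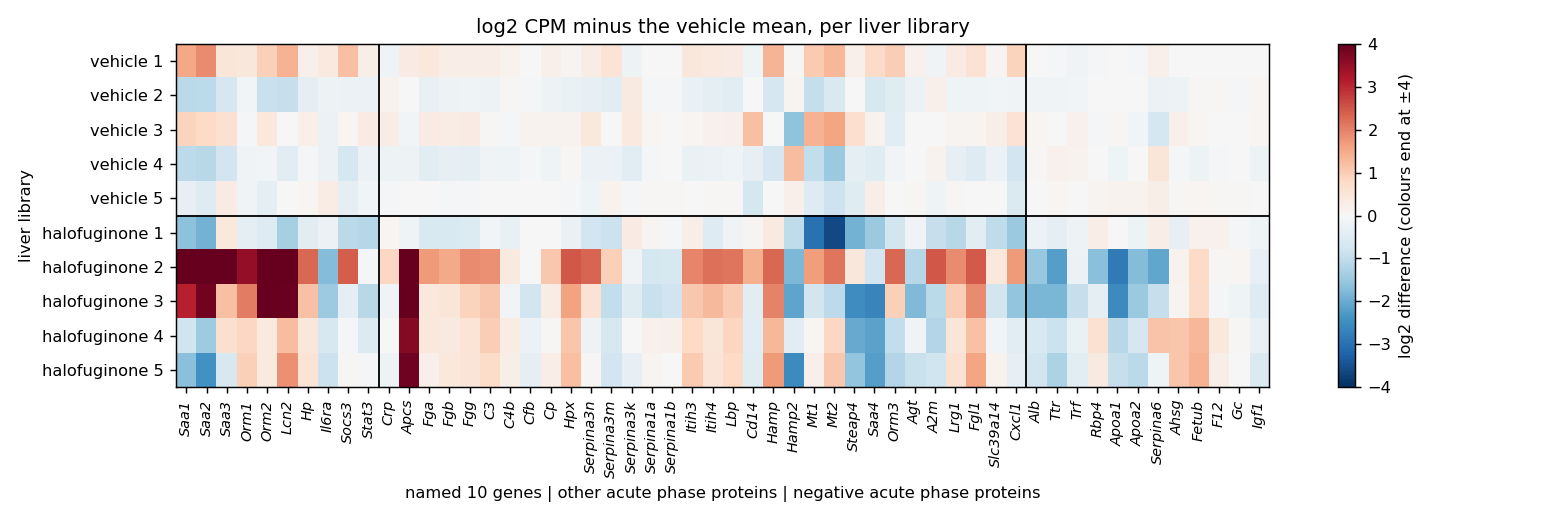
Log2 CPM of the 10 genes, 32 other acute phase proteins and 12 negative acute phase proteins in each liver, minus the vehicle mean (red above, blue below, colours end at 4 in either direction). Halofuginone livers 2 and 3 are darkest red for the Saa1, Saa2, Orm2 and Lcn2 columns, halofuginone liver 1 is pale or blue for the 10 genes, and Apcs is red in halofuginone livers 2 to 5.

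Negative acute phase proteins are those of which the liver makes less during inflammation. Of 12 listed, all tested, 3 fell and 1 rose (33.3% called, beside 23.2% of all genes, of which 10.5% were lower), with a median log2 fold change of −0.21. Ttr (transthyretin), Apoa2 (an HDL apolipoprotein) and Igf1 fell, with log2 fold changes of −1.17 (SE 0.30), −0.93 (SE 0.26) and −0.38 (SE 0.12) and edgeR adjusted p-values of 0.0217, 0.0281 and 0.0365. Their calls were lost in 2, 6 and 8 of 10 fits without 1 library, each without halofuginone liver 3 (edgeR adjusted p 0.0502 to 0.0980 over these fits), and that of Igf1 also with library size alone as the scaling (edgeR adjusted p 0.144). Alb was lower in 5 of 5 treated livers than in any vehicle liver, at 26739 to 80505 against 85298 to 98802 CPM. As a share of all counts, without TMM, the groups overlapped (7.98% in halofuginone liver 1 and 7.84% in vehicle liver 2). Its log2 fold change of −0.86 (SE 0.33) did not pass the test (edgeR adjusted p 0.0742). Fetub (fetuin-B) was higher in all 5, by 0.95 on the log2 scale (SE 0.21, edgeR adjusted p 0.0136), against the direction of its list. Halofuginone livers 2 and 3 had the lowest Ttr, Apoa2 and Alb.

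Of the IL-6 family ligands and receptors, 8 of 15 were tested in liver and 0 were called, with 1 at an unadjusted p under 0.05. Over all genes tested, 23.2% were called and 39.1% had an unadjusted p under 0.05. Il6 itself had at most 2 counts in any liver and was not tested. Il6st, which encodes gp130, was at 243 ± 19.7 CPM in vehicle and 257 ± 40.5 CPM in treated livers (SD, n = 5 each), and did not pass (0.08 on the log2 scale, SE 0.13, edgeR adjusted p 0.663). Lifr, the leukaemia inhibitory factor receptor, was at −0.77 (SE 0.36, edgeR adjusted p 0.134) and Adam17, the sheddase of the IL-6 receptor, at −0.33 (SE 0.13, edgeR adjusted p 0.0881). Among the 14 tested genes of the JAK-STAT relay and its brakes 2 fell (14.3% called, beside 23.2% of all genes, of which 10.5% were lower). Socs2, a growth hormone feedback gene and 1 of these, fell by 2.15 (SE 0.60, edgeR adjusted p 0.0278). Jak1 did not pass (0.36, SE 0.14, edgeR adjusted p 0.0881), and did so without halofuginone liver 1 (0.44, edgeR adjusted p 0.00724). The call of Socs2 was lost in 6 of 10 fits without 1 library, namely without vehicle liver 2 or 3 or halofuginone liver 2, 3, 4 or 5 (edgeR adjusted p 0.0503 to 0.0715).

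Of 14 acute phase transcription factors, Atf3 rose (2.57, SE 0.69, edgeR adjusted p 0.0243) and the hepatocyte factor Hnf4a fell (−0.71, SE 0.20, edgeR adjusted p 0.0269). Cebpb fell from 67.2 ± 8.94 to 53.6 ± 3.44 CPM (SD, n = 5 each; log2 fold change −0.32, SE 0.10, edgeR adjusted p 0.0430), a call that library size alone removed (edgeR adjusted p 0.255). Cebpd (−0.04, SE 0.15, edgeR adjusted p 0.861) and Nfkbiz (−0.05, SE 0.31, edgeR adjusted p 0.927) did not pass, and library size alone turned both signs (0.13 and 0.10). In the list of IL-1 and tumour necrosis factor input, Traf6, an adaptor of the IL-1 receptor, was the 1 gene called of 11 (−0.45, SE 0.14, edgeR adjusted p 0.0417), and its call was lost with library size alone (edgeR adjusted p 0.103). Among 15 STAT3-responsive genes Myc (1.53, SE 0.48), Icam1 (0.74, SE 0.19) and Hif1a (0.56, SE 0.12) rose (edgeR adjusted p 0.0399, 0.0223 and 0.0111), while 12 did not pass. Hif1a and Icam1 were higher in all 5 treated livers than in any vehicle liver, halofuginone liver 1 included, and Hif1a kept its call without each library in turn. The calls of Atf3, Hnf4a, Cebpb, Traf6, Myc and Icam1 were lost in 6, 5, 7, 8, 8 and 2 of 10 such fits (edgeR adjusted p 0.0530 to 0.104), those of the first 5 without halofuginone liver 3 and that of Icam1 without vehicle liver 2 or 5. Over all 7 lists, 22 of 106 tested genes were called, 12 higher and 10 lower, a share of 20.8% beside 23.2% of all genes.

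The second comparison asked the same in white adipose tissue. With edgeR, 0 of 14030 genes were called (0%), and 0 of the 8 genes tested here. On simulated counts this test recovered 5.1% of genes changed by 1 on the log2 scale and 65.3% of those changed by 2. The liver test recovered 77.8% and 94.9%, so the absence of calls in fat does not show an absence of change. These shares are for genes taken at random with the same spread in both arms. They do not describe the 10 genes in treated livers, which spread more than most genes. An unadjusted p under 0.05 was found for 0 of the 8 and for 13.4% of all genes, and DESeq2 called 723 genes overall and 0 of these. The median log2 fold change of the 8 was 0.12, beside 0.01 over all genes. The groups did not overlap for Orm2 and Il6ra, both lower under halofuginone, as 10.4% of all genes did in that direction (10.2% were apart in the higher direction and 20.6% in either).

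Saa1 and Saa2 were at the limit of detection in fat and were not tested. Saa1 had 0, 2 and 1 counts in vehicle libraries 1 to 3 and 4, 11 and 8 in halofuginone libraries, and Saa2 had 0, 1 and 0 against 3, 7 and 4. All treated libraries had more counts than any vehicle library, but every vehicle value lies at or under the 3 counts that a count of 0 allows, which is 0.139 to 0.180 CPM, so no fold is given. Saa3, the local serum amyloid gene, was well detected, at 12.7, 22.5 and 11.6 CPM in vehicle and 9.12, 28.0 and 64.2 CPM under halofuginone. Treated libraries 2 and 3 were above the vehicle range and library 1 below it. The log2 fold change was 1.11 (SE 0.65, edgeR adjusted p 0.514), and 0.26 (SE 0.52) without halofuginone library 3.

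Lcn2 was at 6.24, 51.2 and 22.1 CPM in vehicle fat and 19.6, 15.8 and 67.4 CPM in treated fat, with overlapping groups (log2 fold change 0.37, SE 0.82, edgeR adjusted p 0.886). Hp was at 2792, 4839 and 3228 CPM in vehicle and 3898, 2675 and 4514 CPM in treated fat, and the log2 fold change was 0.03 (SE 0.30, edgeR adjusted p 0.978). Without vehicle library 1 or halofuginone library 3 the log2 fold change of Lcn2 was −0.09 (SE 0.72) or −0.55 (SE 0.78), and that of Hp was between −0.12 and −0.01 in 4 of 6 fits without 1 library. Orm1 was at 162, 163 and 55.7 CPM in vehicle and 59.9, 59.6 and 84.8 CPM in treated fat, with vehicle library 3 at the level of the treated ones (−0.90, SE 0.41, edgeR adjusted p 0.402). Orm2 was at 1.50, 1.28 and 0.866 CPM in vehicle and 0.679, 0.697 and 0.684 CPM in treated fat. These values rest on 12 to 25 counts per library (−0.81, SE 0.44, edgeR adjusted p 0.475).

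Il6ra was at 88.1, 76.1 and 69.0 CPM in vehicle fat and at 60.9, 59.6 and 63.8 CPM in treated fat, lower in 3 of 3 libraries (log2 fold change −0.34, SE 0.15, edgeR adjusted p 0.385). Socs3 was at 22.5, 24.5 and 28.0 CPM in vehicle and 65.6, 20.6 and 19.5 CPM in treated fat. Only treated library 1 was high, and treated libraries 2 and 3 were below every vehicle library (0.49, SE 0.48, edgeR adjusted p 0.713, and −0.32, SE 0.19, without that library). Stat3 was at 193, 201 and 195 CPM in vehicle and 263, 182 and 233 CPM in treated fat (0.20, SE 0.18, edgeR adjusted p 0.672). Neutrophil markers were highest in treated library 1, at 40.0 CPM against 15.6 to 24.4 CPM in the other 5, with 260 counts of S100a9. Macrophage markers summed to 4472 to 9952 CPM in vehicle fat and 2948 to 3207 CPM in treated fat, and vehicle fat 3 stood apart with fewer adipocyte transcripts (13943 CPM against 24656 to 30559 CPM in the other 5) and with 76.2 CPM of epididymis markers. The part of these cells in the values above was not tested.

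Per length, vehicle fat had the FPKM order Hp (2645 ± 879), Orm1 (162 ± 81.5), Stat3 (43.4 ± 2.16), Lcn2 (28.7 ± 25.6), Saa3 (27.7 ± 11.7), Il6ra (13.0 ± 1.60), Socs3 (9.57 ± 0.860) and Orm2 (1.54 ± 0.436, SD, n = 3 each), with Saa1 and Saa2 at no more than 0.18 in any library. The range of Lcn2 overlapped those of its neighbours Stat3 and Saa3, and the other neighbours in this order did not overlap. Saa3 thus stood far above Saa1 and Saa2 in fat, and below them in all 10 livers.

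**Figure D5:**
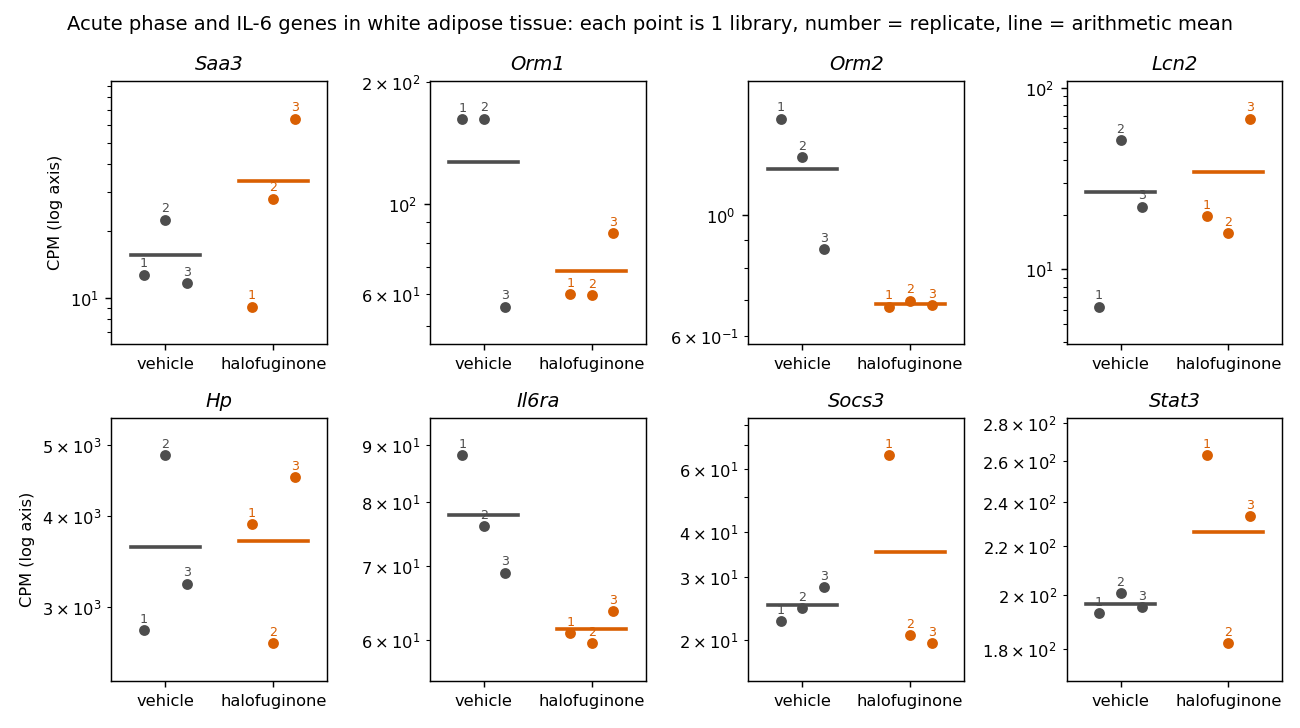
Level of the 8 tested genes in the 6 libraries of white adipose tissue, in CPM on a log axis, vehicle in grey and halofuginone in orange, with replicate numbers and the arithmetic mean of 3 as a line. Groups are apart for Orm2 and Il6ra, while Socs3 is raised in treated library 1 (65.6 CPM) and Saa3 and Lcn2 are highest in treated library 3.

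The pathway lists in fat held 99 tested genes, of which 0 were called by edgeR and 21 had an unadjusted p under 0.05 (13.4% of all genes had one), and DESeq2 called 7 (5.15% of all genes). Among other acute phase proteins the smallest p-values were those of Cp (ceruloplasmin, 1.23, SE 0.17), Mt1 (metallothionein 1, 1.26, SE 0.29) and Lbp (lipopolysaccharide-binding protein, −1.05, SE 0.27), with edgeR adjusted p-values of 0.0954, 0.177 and 0.210. The groups did not overlap for these 3, which were picked for their p-values, nor for 20.6% of all genes. Il6 was at 0.636 ± 0.750 CPM in vehicle and 0.936 ± 0.450 CPM in treated fat (SD, n = 3 each; 0.56, SE 0.91, edgeR adjusted p 0.838). Il6st was at 0.38 (SE 0.22, edgeR adjusted p 0.511) and Jak1 at −0.06 (SE 0.17, edgeR adjusted p 0.911; 0.01 with library size alone).

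Of the IL-6 family the smallest p-values in fat belonged to Osmr (0.72, SE 0.28) and Osm (1.11, SE 0.46), among others, and of the STAT3-responsive genes to Gadd45g (1.17, SE 0.38), Pim1 (0.89, SE 0.31) and Pim3 (1.16, SE 0.43), all with edgeR adjusted p-values between 0.282 and 0.367. Of the transcription factors Nfkbiz (0.77, SE 0.26), Cebpb (0.80, SE 0.28) and Creb3l3 (−1.06, SE 0.46) had the smallest, at edgeR adjusted p-values of 0.295, 0.304 and 0.382. Il1rn, which encodes the IL-1 receptor antagonist, was at 49.2, 41.4 and 149 CPM in vehicle and 12.9, 14.2 and 20.8 CPM in treated fat (−2.32, SE 0.53, edgeR adjusted p 0.174), and Il1a at 0.908 ± 0.732 and 4.14 ± 1.58 CPM (SD, n = 3 each; 2.18, SE 0.67, edgeR adjusted p 0.262).

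The last comparison tested whether the drug effect differed between the tissues, in 1 edgeR fit of all 16 libraries. Of 14853 genes 0.949% were called, and 0 of the 10. On simulated counts this test recovered 14.6% of genes whose effect differed by 1 on the log2 scale and 63.6% of those that differed by 2. An unadjusted p under 0.05 was found for Orm1, Orm2 and Lcn2, and for 2338 of all 14853 genes. For these 3 members the drug effects in fat minus those in liver were −2.93 (SE 0.90), −4.68 (SE 1.82) and −3.44 (SE 1.60). Their edgeR adjusted p-values were 0.126, 0.222 and 0.312. Orm1 passed without halofuginone liver 1 (−3.19, SE 0.77, edgeR adjusted p 0.0233), and DESeq2 called Orm1 (adjusted p 0.0224) and Orm2 (adjusted p 0.0484). Calls became more frequent in general there, with 7.07% of all genes called without that liver and 4.63% with DESeq2. For Saa3, Hp, Il6ra, Socs3 and Stat3 the differences were −1.23 (SE 1.29), −1.08 (SE 0.64), 0.56 (SE 0.38), −0.17 (SE 0.98) and 0.70 (SE 0.36), none of which passed (smallest edgeR adjusted p 0.366). Those of Saa1 and Saa2 cannot be read, since fat held almost none of their RNA.

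The genes most like Saa1, Lcn2 and Saa3 in liver were found by Pearson's r of log2 CPM deviations from the group mean over the 10 libraries, among 8817 genes of at least 5 CPM. For Saa1 these included Prg4 (0.98), Actb (0.96), Cnep1r1 (0.95) and Dpp9 (0.94), and for Lcn2 Itih4 (0.99), Rbm27 (0.98), Cyb561 (0.97), Zfr (0.97) and Cdc42se2 (0.97). Saa3 was most like Pnp (0.96), Ston2 (0.95), Prg4 (0.94), Skap2 (0.94) and Gm49342 (0.93). Within the 10 genes, r with Saa1 was 0.997 for Saa2, 0.98 for Orm2, 0.92 for Orm1, 0.91 for Hp, 0.91 for Lcn2 and 0.90 for Saa3, against 0.77 for Socs3, 0.30 for Stat3 and −0.70 for Il6ra. These r within the 10 were not computed without halofuginone liver 2, which was the highest liver for 8 of the 10 genes. Without halofuginone liver 2, r with Saa1 was 0.97 for Prg4 and 0.90 for Actb, while r with Saa3 fell to 0.87 for Pnp, 0.79 for Ston2, 0.79 for Prg4, 0.76 for Gm49342 and 0.68 for Skap2. In fat, over 6 libraries and among 10952 genes, Lcn2 was most like Fuca1, Slc39a9, Narf, Thop1 and Ralgds (r between 0.99 and 1.00). Saa3 was most like Dctn5, Ifnar2, Nme7, Tmed3 and Psmb10, with r in the same range. With so few libraries the highest r among so many genes can lie near 1 for unrelated genes, so these names cannot be read as co-expressed genes. The values of each r share the same libraries and their depth, and the r are a description with no test.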

How the data were processed

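Per the labels' protocols, poly(A) RNA was captured on oligo(dT) beads and made into libraries with a NEBNext Ultra kit. The submitters' processing notes name fastp 0.18.0, Bowtie2 2.2.8, HISAT2, StringTie 1.3.1, RSEM and build mm39, without saying which of them made the counts, and the strand setting is not given in the sources used here. The authors deposited, per the file headers, whole-number counts and FPKM (counts scaled by gene length and library size) for each library. Between 1 and 31 genes per library were listed with 0 counts and a positive FPKM, as rounded estimates would give. All 16 libraries were grouped by their titles, and 0 columns were left unmapped. A gene name table gave symbols for 22267 of 22322 identifiers.

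For each tissue separately, counts were tested with edgeR 4.0.16 (R 4.3.3; filterByExpr, TMM, glmQLFit and glmQLFTest, two-sided), adjusted by Benjamini-Hochberg over all genes tested and called under 0.05. The SE of a log2 fold change is its size divided by the square root of F. A count of 0 allows up to 3 counts (0.0983 to 0.150 CPM in liver). Such floors cover counting error only, since no molecular identifiers were used. The test between tissues treats all 16 libraries as independent. The scripts were tested on simulated data, where DESeq2 made a larger share of false calls than edgeR in all 3 comparisons. These shares were 18.1% against 3.95% in liver, 31.7% against 5.63% in fat and 24.1% against 7.32% between tissues. The simulated counts gave each gene the same spread in both arms, as estimated by edgeR, whereas treated livers here spread more than vehicle livers. They therefore cannot decide between the 2 methods where these differ, nor give the share recovered for genes with such a spread. Genes, lists and rules were chosen with earlier results of these data known. Named genes were all 10, 7 fixed pathway genes, up to 3 called rises and 3 called falls per list and tissue (or the 3 smallest p-values where none was called), and the 5 genes most like Saa1, Lcn2 and Saa3. A few genes that this rule names are not reported here. Alternatives were DESeq2 1.42.0, other scalings and filters, 1 fit of all groups, a block on replicate number, limma 3.58.1 on log2(FPKM + 1) and log2(FPKM + 0.1), and leaving out each library. Robust dispersion and leaving out halofuginone livers 2 and 3 together were added after seeing the data. Transcript identity came from GENCODE M21 and promoters from RefSeq (GRCm38.p6), another build than that of the counts. Promoter positions were therefore not compared with any other coordinates.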

Additional observations from a re-analysis of the deposited data

Results flagged for a closer look

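Single libraries far from the rest of their group of 5 livers were looked for in 68 groups of values, taking a gap to the nearest other library of more than 0.71 of the group's range. There were 14 such cases in CPM, 8 of them in the 20 groups of the acute phase and IL-6 genes. Independent normal values would give about 3.4, but these genes move together and are skewed, so that number is no yardstick for them. On log2(CPM + 0.5), a scale added after seeing the data, 6 of the 14 remained past the limit, namely Orm1, Cebpb, Cebpd, Fetub, Traf6 and Icam1. In halofuginone liver 2, Saa1 (5794 CPM, next 1037), Saa2 (9656 CPM, next 1246), Saa3 (212 CPM, next 23.8), Lcn2 (2987 CPM, next 799), Socs3 (60.8 CPM, next 11.3) and Icam1 (38.5 CPM, next 22.3) were far above the other 4 treated livers. In vehicle liver 1, Orm1 (542 CPM, next 389), Lcn2 (134 CPM, next 50.8), Socs3 (25.9 CPM, next 11.6) and Nfkbiz (8.91 CPM, next 5.83) were far above the other 4 vehicle livers. Neutrophil markers were highest in the same library of each arm, with summed levels of 20.9 CPM in halofuginone liver 2 and 12.1 CPM in vehicle liver 1. In halofuginone liver 2, S100a9 gave 7.16 CPM and S100a8 3.09 CPM of that sum, and Ly6g had 0 counts. Of the 10 markers 4 were tested in liver and 0 were called, and their part in these values was not tested.

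In halofuginone liver 1, Traf6 (23.9 CPM, next 18.5) stood above the other treated livers and within the vehicle range. Cebpb was high in halofuginone liver 5 (59.7 CPM, next 53.2), Cebpd was high in vehicle liver 2 (12.1 CPM, next 9.65) and Fetub was low in vehicle liver 4 (398 CPM, next 466). The effect of the drug on Creb3l3, which encodes a liver-enriched transcription factor of the acute phase, differed between the tissues, with an effect in fat minus that in liver of −1.18 (SE 0.24, edgeR adjusted p 0.0330), from a log2 fold change of 0.11 (SE 0.11) in liver and −1.06 (SE 0.46) in fat, where its level was at most 1.16 ± 0.278 CPM (SD, n = 3). Its call between tissues was lost with the replicate block (−1.23, SE 0.34, edgeR adjusted p 0.374) and in 12 of 16 fits without 1 library (edgeR adjusted p 0.0514 to 0.136).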

How the results depend on the processing

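The number of the 10 genes called in liver (4) was 7 with DESeq2 and 6 with library size alone. It was 1 with the replicate number as a block (Il6ra), and 1 with limma on log2(FPKM + 1) and on log2(FPKM + 0.1) (Il6ra in both). Without 1 library it was 0 to 8 (8 without halofuginone liver 1), and it was 0 without halofuginone livers 2 and 3. Beside 23.2% of all genes with the test used above, DESeq2 called 29.4%, library size alone 29.5% and the block 15.4%. The limma fits called 28.8% and 28.0% of all genes, fits without 1 library 10.3% to 42.8%, and the fit without livers 2 and 3 called 4.01%. The pathway list genes called in liver (22) were 10 with the block, 6 (without vehicle liver 2 or halofuginone liver 3) to 44 (without halofuginone liver 1) without 1 library and 5 without livers 2 and 3, and all genes called (2850) were 1275 to 5312 without 1 library (halofuginone liver 3 and 1) and 502 without both. In fat all genes called (0) were 723 with DESeq2, 1 with no filter, 334 in 1 fit of all groups and 0 to 1 without 1 library, and pathway genes 7 with DESeq2 and 4 in 1 fit. Between tissues the 10 genes gave 2 calls with DESeq2 and 0 to 1 without 1 library, and all genes (141) gave 687 with DESeq2, 2 with the block, 34 to 1053 without 1 library (halofuginone liver 3 and 1) and 35 without livers 2 and 3.

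The sign turned in these cases, and except where a library was left out the cause was not tested. Without halofuginone livers 2 and 3 the log2 fold change was −1.72 for Saa1, −2.38 for Saa2 and −0.48 for Socs3, and the difference between tissues was 0.95 for Saa3 and 0.94 for Socs3. Without 1 library the lowest and highest values in liver were −0.52 and 1.10 for Socs3, −0.016 and 0.12 for Il6st, −0.12 and 0.047 for Cebpd and −0.40 and 0.14 for Nfkbiz. In fat they were −0.55 and 1.28 for Lcn2, −0.12 and 0.30 for Hp, −0.32 and 0.81 for Socs3, −0.18 and 0.030 for Jak1 and −0.15 and 1.25 for Cebpd. Between tissues they were −2.13 and 0.65 for Saa3 and −0.99 and 0.99 for Socs3. With library size alone, log2(FPKM + 1) and log2(FPKM + 0.1), Cebpd in liver was at 0.13, 0.070 and 0.086, Nfkbiz in liver at 0.10, 0.027 and 0.017 and Jak1 in fat at 0.0076, 0.0069 and 0.0071. The block put the difference of Socs3 between tissues at 0.30.

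Beyond these, 0 single-gene values turned. With the block, Orm1, Orm2 and Lcn2 lost their calls in liver (edgeR adjusted p 0.136, 0.325 and 0.221). Same-numbered libraries of both arms had deviations with r of −0.18 to 0.10 in liver and −0.59 to 0.16 in fat, and 3 of 10 livers and 1 of 6 fat libraries deviated most like the library of their own number, so the numbers were not taken as pairs. Liver and fat libraries of the same arm and number had r of −0.15 to 0.25, over 0.1 in 3 of 6 pairs (all 3 of vehicle and 0 of halofuginone), and the test between tissues takes them as independent. Depth was ample in liver, where Socs3 had 98 to 1630 counts, and it limited Saa1, Saa2 and Orm2 in fat.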
